A study of Mus musculus with 17 samples.

Results

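Resting CD8+ T cells without a functional Cblb gene were compared with wild-type cells that had received no stimulation. The comparison rested on 3 unstimulated Cblb knockout (KO) libraries and 3 unstimulated wild-type (WT) libraries, chosen by their labels out of 17 libraries in the series, and covered 16246 genes tested of 53679 listed. All cells were CD8+ T cells purified from C57BL/6 mice. The labels call the genotype knockout or wildtype for CBLB and do not give the kind of allele, the part of the gene removed, the age or the number of animals. The other groups of the series, KO and WT cells given anti-CD3 for 12 h (3 libraries each) and KO and WT cells given anti-CD3 plus anti-CD28 for 12 h (3 and 2 libraries), are used only where a difference seen at rest is set beside the one after stimulation. The study asks, by its title, how too much interferon-gamma from cells that lack Cbl-b bears on suppression by regulatory T cells, and the unstimulated cells are its baseline.

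Cbl-b, the product of Cblb, is an E3 ubiquitin ligase that attaches ubiquitin to signalling proteins downstream of the T cell receptor and so restrains activation. In T cells it is known above all for setting the requirement for CD28 costimulation: cells that lack it respond to stimulation through the T cell receptor alone. Naive CD8+ T cells are quiescent, are kept alive by interleukin-7 and weak contacts with self peptide, and pass into memory-like or effector states marked by receptors such as Cxcr3 and the interleukin-2 receptor beta chain.

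The unit of measurement was the read count per gene, here expressed as CPM, the count relative to the library total after scaling by the trimmed mean of M-values (TMM). Total counts were 19181131, 160059285 and 16640125 in KO libraries 1 to 3, and 30931673, 26961786 and 17951862 in WT libraries 1 to 3, so KO library 2 was sequenced far more deeply than the others. No label says that the 3 libraries of a group came from separate animals, so the p-values measure the spread between these samples only, which may be technical. T cell and CD8 genes were high in all 6 libraries: the 11 identity genes (among them Cd3e, Cd8a and Lck) summed to 5173 to 5803 CPM in KO and 4979 to 4997 CPM in WT libraries. Clec9a, a gene of dendritic cells, and Pf4 and Ppbp of platelets were at 0 in all 6. The 6 dendritic cell markers together summed to 16.4 to 20.4 CPM in KO and 14.7 to 16.6 CPM in WT. Among them Itgax was at 7.30 to 9.57 CPM in KO and 4.64 to 6.31 CPM in WT. Zbtb46 was at 6.46 to 8.67 CPM in KO and 7.36 to 8.21 CPM in WT. The 10 monocyte and neutrophil markers summed to 4.72 to 6.50 CPM in KO and 4.70 to 5.32 CPM in WT, and the 6 NK cell markers to 10.8 to 12.7 CPM in KO and 13.1 to 19.6 CPM in WT. The 10 B cell markers, nearly all from Ighm, summed to 379 to 453 CPM in KO and 315 to 368 CPM in WT. Cd22 among them was at 7.41 to 9.38 CPM in KO and 3.56 to 4.18 CPM in WT. Cd22 and Itgax were called higher in KO both without and with the GC correction described below. In such bulk samples, fewer cells of a type and less RNA per cell cannot be told apart.

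The strongest pattern in this comparison followed the base composition of genes. Genes rich in G and C read higher in KO cells and genes rich in A and T read lower. In the decile of genes with the lowest exonic GC content (28.3% to 41.7%) the median log2 fold change of KO over WT was -0.45, with 10 genes called higher and 497 lower. In the decile with the highest GC content (57.5% to 71.0%) the median was 0.73, with 853 genes called higher and 7 lower. The medians climbed at each step between these ends. Over all genes the median was -0.01.

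The trend could be measured in each library as a GC tilt, the median log2 level of 1746 GC-rich protein-coding genes (56% or more) minus that of 314 GC-poor ones (40% or less), each gene taken relative to its mean over the 6 libraries. The tilt was 0.39, 1.07 and 0.10 in KO libraries 1 to 3, and -0.81, -0.38 and -0.38 in WT libraries 1 to 3. All KO libraries lay above all WT libraries, with KO library 2 and WT library 1 at the ends. The means were 0.52 ± 0.50 in KO and -0.52 ± 0.25 in WT (SD, n = 3 each), and the difference of 1.04 had p = 0.1 in a two-sided exact permutation test, the smallest value that 3 against 3 libraries allow. Relative to all 17 libraries, the tilts of the 11 stimulated libraries ran from -1.13 to 0.55. The genotype difference along GC content was -0.17 in the lowest and 0.41 in the highest decile with anti-CD3, and turned round with both antibodies, at 0.27 and -0.58. The abundant 7SL and 7SK RNAs (Rn7s1, Rn7s2 and Rn7sk, near-identical copies in part) moved with the tilt, taking 11.5%, 13.1% and 7.83% of counts in KO libraries and 3.98%, 6.05% and 6.03% in WT libraries. Mitochondrially encoded genes took 3.65%, 2.25% and 3.91% in KO and 5.54%, 4.59% and 4.12% in WT libraries. Tilt and genotype split the 6 libraries in the same way and cannot be told apart here.

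**Figure D1:**
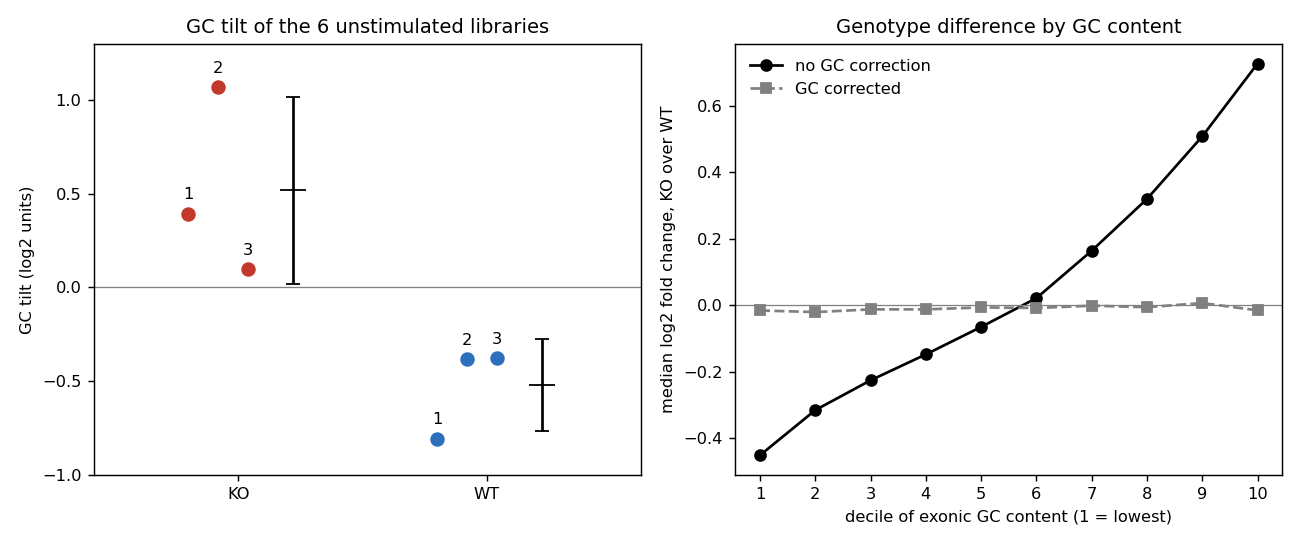
Left: GC tilt (log2 units) of the 3 KO and 3 WT unstimulated libraries, each point a library with its number, bars mean ± SD (n = 3). Right: median log2 fold change of KO over WT in each decile of genes by exonic GC content, without (black) and with (grey) the GC correction. The uncorrected medians climb with GC content between -0.45 and 0.73, and the corrected ones stay between -0.02 and 0.01.

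The number of genes called differed between fits without and with a correction for GC content. Without a correction for GC content, 4134 of 16246 genes (25.4%) had a Benjamini-Hochberg adjusted p under 0.05 in edgeR's quasi-likelihood test, 2493 of them higher in KO (15.3%) and 1641 lower (10.1%). The median GC content was 56.3% in genes called higher, 43.6% in genes called lower and 49.6% in all genes tested. With a per-library correction for GC content, 1283 were called (7.9%), 613 higher (3.77%) and 670 lower (4.12%). Calls in the same direction in both fits numbered 847 (5.21%), with 509 higher (3.13%) and 338 lower (2.08%), while 9 genes were called in opposite directions. These 847 were 20.5% of the calls without and 66.0% of the calls with the correction. A gene is said below to have risen or fallen in KO cells where it was called in both fits. Log2 fold changes, SE and adjusted p below are from the fit without the correction unless said otherwise, also for stimulated cells. Each count of list members that rose or fell stands beside these shares of all genes, 3.13% and 2.08%. Counts called without the correction stand beside 15.3% higher and 10.1% lower, and counts called with it beside 3.77% and 4.12%.

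The calls also leaned on single libraries. Without KO library 2 the genes called in both fits were 72 higher and 54 lower, and without WT library 1 they were 86 higher and 102 lower. These are the libraries at the ends of the tilt. A set of 86 genes (0.529% of those tested) was called in the same direction in all 14 fits, namely the fit of all libraries and the 6 fits that each leave out 1 unstimulated library, without and with the correction. Of these, 45 were higher (0.277%) and 41 lower (0.252%). They are described below as called in all 14 fits. When the tilt itself was entered as a covariate, 31 genes were called, of which 24 were among the 847 and 18 among the 86. Those 18 included Cblb, Cd96, Plcxd2, Slc35a5, Ly6a, Bcl2l1, Dnajb1 and Dnajb4.

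Cblb itself (ENSMUSG00000022637, a protein-coding gene on the plus strand of GRCm38 chromosome 16, 52031225 to 52208048) was at a lower level in each KO library. It had 66.2, 68.8 and 63.9 CPM in KO libraries 1 to 3, against 159.7, 139.5 and 147 CPM in WT libraries. The groups were far apart, with means of 66.3 ± 2.45 CPM in KO and 149 ± 10.2 CPM in WT (SD, n = 3 each). The log2 fold change was -1.16 ± 0.083 (SE; adjusted p = 1.15e-06), and -1.11 with the GC correction. The counts cover the whole gene, so they do not show how much intact transcript the KO cells held. Its closest relative Cbl, also a ubiquitin ligase, had 152, 157 and 148 CPM in KO against 216, 191 and 172 CPM in WT libraries and was called lower only without the correction (-0.34 ± 0.10, adjusted p = 0.0264, and 0.138 with it). Itch, another ligase of T cell tolerance, behaved the same way (-0.38 without and -0.10 with the correction). Among the 18 tested partners and substrates of Cbl-b, 1 rose and 1 fell (5.56% each, against 3.13% and 2.08% of all genes). Without the correction 6 were called higher and 3 lower, against 15.3% and 10.1% of all genes. The 1 that rose was the delta catalytic subunit of phosphoinositide 3-kinase Pik3cd (0.82 ± 0.20, adjusted p = 0.0117). The 1 that fell was the adaptor Crk (-0.48 ± 0.11, adjusted p = 0.00907).

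Several genes near Cblb on chromosome 16 also fell. Cd96, an immunoglobulin superfamily receptor of T and NK cells that binds CD155, had 131, 122 and 131 CPM in KO libraries against 284, 252 and 211 CPM in WT libraries. All 3 KO values lay well below all WT values (-0.96 ± 0.12, adjusted p = 0.00114). Plcxd2, a phospholipase C-like gene, had 70.5, 68.6 and 76.3 CPM in KO against 151, 154 and 129.6 CPM in WT libraries (-1.01 ± 0.12, adjusted p = 0.00102). Slc35a5, of the nucleotide sugar transporter family, had 21.2, 18.3 and 22.1 CPM in KO against 42.3, 39.2 and 33.4 CPM in WT libraries (-0.91 ± 0.11, adjusted p = 0.00114). These 3 genes were called in all 14 fits and start 6.00, 6.07 and 6.89 Mb before the start of Cblb. Btla, an inhibitory receptor that binds HVEM, starts 6.81 Mb before Cblb and had 71.1, 63.0 and 83.1 CPM in KO against 126, 115 and 87.8 CPM in WT libraries (-0.60 ± 0.15, adjusted p = 0.0119). These distant genes lie outside the window of 5 Mb that was set for neighbours and were picked out after their values were seen. Cd96, Plcxd2 and Slc35a5 are, however, also among the 12 genes that fell most in a ranking by rule. That ranking took genes with a mean log2 CPM of at least 2 and no overlap between the groups. It left out predicted and clone names and pseudogenes.

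Inside the window of 5 Mb on either side of Cblb, 25 genes were tested, 18 of them protein coding. Of the 25, 2 fell and 1 rose, where 2.08% of all genes fell and 3.13% rose. Without the correction 9 were called lower and 1 higher, against 10.1% and 15.3% of all genes. Dubr, a noncoding RNA gene, had 6.46, 4.36 and 5.30 CPM in KO against 8.95, 10.8 and 7.41 CPM in WT libraries (-0.78 ± 0.18, adjusted p = 0.0105), and Pcnp, a nuclear protein gene, was called lower in all 14 fits (-0.61 ± 0.11, adjusted p = 0.00592). Rpl24, of the large ribosomal subunit, was higher by 0.32 ± 0.09 (adjusted p = 0.0186). The median log2 fold change of the 25 was -0.32 without and -0.10 with the correction, and their median GC content of 44.6% was below that of all genes. On the whole of chromosome 16, 6 of 472 genes (1.27%) were called in all 14 fits, all 6 lower. Cblb and the predicted antisense gene Gm15638 (-1.51) were among them. Of all genes, 0.529% were called in all 14 fits in either direction and 0.252% lower. Chromosomes 17, 15 and 19 held 1.06%, 1.01% and 1.01% in either direction. After stimulation Cd96 was also lower in KO cells, with log2 fold changes of -1.22 ± 0.12 for anti-CD3 and -0.78 ± 0.13 for the antibody pair (adjusted p = 1.47e-05 and 0.00314). The labels do not say how the allele was made or crossed, and whether DNA linked to Cblb differs between the groups was not tested.

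**Figure D2:**
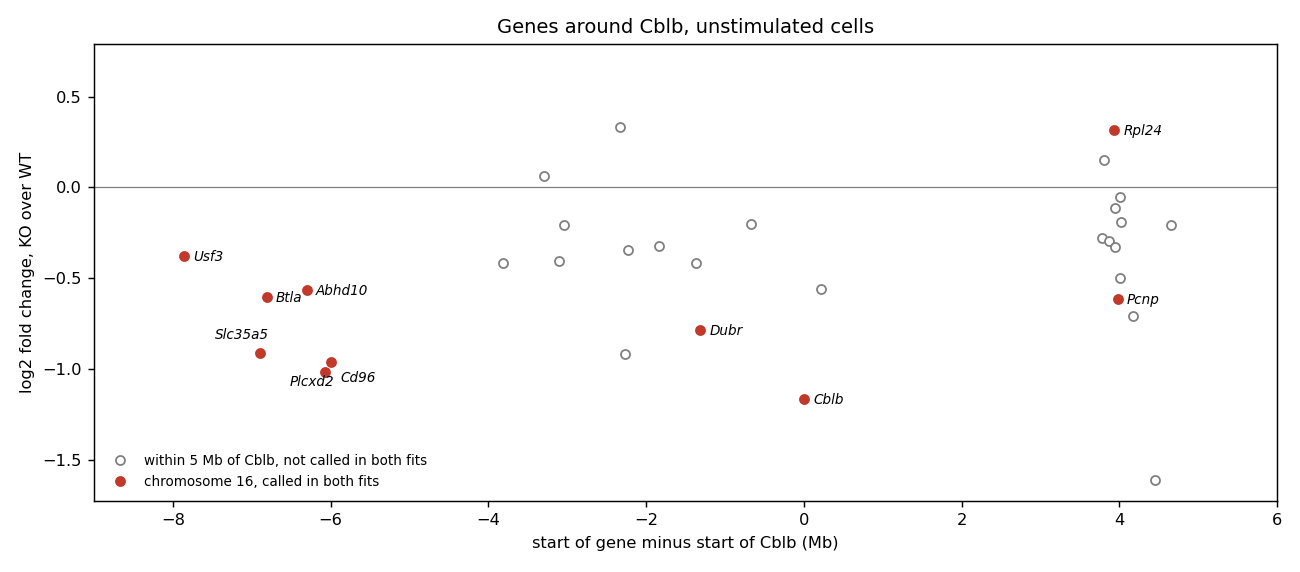
Log2 fold change of KO over WT (vertical axis) against the distance of each gene's start from that of Cblb in Mb, for the genes tested within 5 Mb (open circles) and for named chromosome 16 genes called in both fits in the plotted range (filled). Gm15638, a predicted gene of chromosome 16 at -1.51, is not plotted. Cblb, Plcxd2, Cd96 and Slc35a5 lie at -1.16, -1.01, -0.96 and -0.91.

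Genes of the interferon response were higher in resting KO cells. Interferons signal through their receptors and Janus kinases to transcription factors that bind promoters, at gamma-activated sites for interferon-gamma and mainly at interferon-stimulated response elements for type I interferons. Of 31 tested genes of the interferon-gamma response, 11 rose and 0 fell (35.5% against 3.13% of all genes), and 28 of 31 had a positive log2 fold change. The list's median was 0.48 without and 0.38 with the GC correction, against -0.01 for all genes in each fit. The 11 were Psmb8, Psmb9, Psmb10, Tap1, Tap2, Nlrc5, Igtp, Irgm1, Iigp1, Gbp3 and Gbp10. They fall into the class I antigen processing machinery and the guanosine triphosphatases (GTPases) of defence inside the cell.

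Promoter sequence is shown for the interferon genes that rose and whose reference promoter holds both or repeated copies of these elements. Each line gives the 250 bases before the annotated RefSeq start (GRCm38.p6), on the strand of the gene, 5′ to 3′. Capitals mark matches on either strand to the core of the interferon-stimulated response element (GAAA and GAAA separated by 2 bases) or to the gamma-activated site (TTC and GAA separated by 3 bases), and overlapping matches run together. Igtp lies at chr11:58199306-58199555 (+), Irgm1 at chr11:48871421-48871670 (-), Gbp3 at chr3:142559794-142560043 (+) and Oas1a at chr5:120907526-120907775 (-).
Igtp: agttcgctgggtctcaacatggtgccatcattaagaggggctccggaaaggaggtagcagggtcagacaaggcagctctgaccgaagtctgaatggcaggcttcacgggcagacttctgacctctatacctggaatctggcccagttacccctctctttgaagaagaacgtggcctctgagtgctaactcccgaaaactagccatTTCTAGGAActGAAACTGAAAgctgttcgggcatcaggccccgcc
Irgm1: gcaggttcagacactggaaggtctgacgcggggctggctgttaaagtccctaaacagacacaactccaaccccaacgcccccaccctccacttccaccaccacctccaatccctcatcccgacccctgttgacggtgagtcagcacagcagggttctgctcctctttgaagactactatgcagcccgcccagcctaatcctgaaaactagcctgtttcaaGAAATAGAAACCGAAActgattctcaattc
Gbp3: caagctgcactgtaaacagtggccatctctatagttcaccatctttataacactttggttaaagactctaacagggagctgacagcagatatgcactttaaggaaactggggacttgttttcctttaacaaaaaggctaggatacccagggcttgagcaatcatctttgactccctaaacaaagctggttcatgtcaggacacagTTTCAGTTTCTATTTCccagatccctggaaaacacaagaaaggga
Oas1a: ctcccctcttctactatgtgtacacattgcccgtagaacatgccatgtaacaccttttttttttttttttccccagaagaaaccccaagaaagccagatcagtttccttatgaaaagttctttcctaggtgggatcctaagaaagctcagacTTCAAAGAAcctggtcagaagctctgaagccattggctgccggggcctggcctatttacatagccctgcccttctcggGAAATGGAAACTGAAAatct

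In Igtp a gamma-activated site and a response element stand side by side, and in Irgm1 and Gbp3 a pair of response elements overlap. Of 32851 promoters of this length, 2.98% held the response element core and 7.02% the gamma-activated site. Among the interferon-gamma response genes with a promoter sequence, 3 of 7 that rose and 8 of 15 that did not held the response element, and 2 of 7 and 7 of 15 held the gamma-activated site. A match describes letters in the window and is not a measured binding site.

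Igtp, whose product Irgm3 is an immunity-related GTPase, had 209.8, 206 and 352 CPM in KO against 135, 167 and 160.1 CPM in WT libraries (0.73 ± 0.15, adjusted p = 0.00746). Iigp1, an effector GTPase that coats the vacuoles of parasites, had 69.3, 51.5 and 171 CPM in KO against 36.3, 35.8 and 46.2 CPM in WT libraries (1.29 ± 0.33, adjusted p = 0.0154). Irgm1, a regulator of these GTPases, had 159.6, 156 and 240.0 CPM in KO against 135, 149.7 and 137 CPM in WT libraries (0.40 ± 0.13, adjusted p = 0.0311). The guanylate-binding proteins followed, with 44.2, 42.3 and 102 CPM of Gbp10 in KO against 31.3, 28.0 and 36.3 CPM in WT libraries (0.97 ± 0.25, adjusted p = 0.0144). KO library 3 was the highest of the 6 for each of these GTPases, and KO libraries 1 and 2 lay closer to the WT libraries.

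The antigen processing genes were spread differently over the KO libraries. Psmb9, a catalytic subunit of the immunoproteasome, had 99.9, 126 and 120.1 CPM in KO libraries against 60.2, 68.1 and 73.3 CPM in WT libraries, and alone among the 11 was called in all 14 fits (0.78 ± 0.13, adjusted p = 0.00466). The other inducible subunits, Psmb8 and Psmb10, were higher by 0.65 ± 0.13 and 1.32 ± 0.28 (adjusted p = 0.00686 and 0.00906). Tap2, which with Tap1 moves peptides into the endoplasmic reticulum, had 142, 181 and 128 CPM in KO against 53.0, 72.5 and 71.0 CPM in WT libraries (1.20 ± 0.29, adjusted p = 0.0123). Tap1 had 279, 344 and 294 CPM in KO against 167, 189 and 193 CPM in WT libraries (0.74 ± 0.15, adjusted p = 0.00686). Nlrc5, the transactivator of class I genes, was higher by 0.51 ± 0.11 (adjusted p = 0.00895). In Tap2, Tap1 and Psmb10 KO library 2, the one of the highest tilt, was the highest, and the correction lowered their fold changes to 0.57, 0.28 and 0.65. The class I genes themselves did not pass in both fits: H2-K1 was called higher only without the correction (0.48, and 0.04 with it), and B2m, the shared light chain, had 2070.2, 1629 and 2177 CPM in KO against 2296, 2167 and 2206 CPM in WT libraries (-0.18 ± 0.11, adjusted p = 0.213).

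Type I interferon response genes showed the same direction with fewer calls. Of 29 tested, 4 rose and 0 fell (13.8%), among them Usp18, Oas3 and Oas1a, and the median was 0.34 without and 0.29 with the correction. Oas1a, an enzyme that makes oligoadenylates in response to double-stranded RNA, had 9.66, 16.7 and 18.8 CPM in KO against 5.45, 7.60 and 7.69 CPM in WT libraries (1.13 ± 0.24, adjusted p = 0.00747). Usp18, which removes ISG15 from proteins, was higher by 0.52 ± 0.15 (adjusted p = 0.0232). The interferon-gamma transcript was not higher: Ifng had 6.18, 7.24 and 7.76 CPM in KO against 6.64, 8.93 and 10.2 CPM in WT libraries (-0.27 ± 0.34, adjusted p = 0.585). Of the 14 tested T cell cytokines, 0 rose and 0 fell in both fits, with 2 called higher and 1 lower without the correction and 1 higher and 0 lower with it.

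The interferon counts depended on WT library 1 and KO library 2. Without WT library 1 the interferon-gamma genes called in both fits were 1 of 31. Without KO library 2 they were 7, and without any other single library 8 to 11. For the type I list the counts were 1 without KO library 2 and 1 without WT library 1, and 2 to 6 otherwise. In none of these pairs of fits did a gene of either list pass as lower.

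Interferon-inducible genes outside the lists were picked out after their values were seen. Gm4070, Gvin1 and Gm12250 (Irgb10 in RefSeq) belong to the large inducible GTPase families. Gm4070 had 809, 775 and 1203 CPM in KO libraries against 456, 496 and 578 CPM in WT libraries (0.86 ± 0.14, adjusted p = 0.00347), and Gm12250 had 35.6, 34.0 and 66.2 CPM in KO against 25.9, 26.8 and 25.2 CPM in WT libraries (0.79 ± 0.18, adjusted p = 0.00905), both called in all 14 fits. Beside Iigp1 on chromosome 18, 4 relatives were nearly silent in WT cells. Gm4841 had 2.19, 2.37 and 7.37 CPM in KO against 0.324, 0.342 and 0.679 CPM in WT libraries (3.14 ± 0.52, adjusted p = 0.00466), and starts 108 kb from Iigp1. Gm5970 had 92 counts over the 3 KO libraries and 0 over the WT libraries, and F830016B08Rik had 74 over the KO and 0 over the WT libraries. Against a floor of 3 counts over the pooled WT libraries these were at least 12.4-fold and 10-fold higher, or 20.2-fold and 18-fold without KO library 2. KO library 3 was again the highest for Gm4070, Gm12250, Gm4841 and Gm4951.

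**Figure D3:**
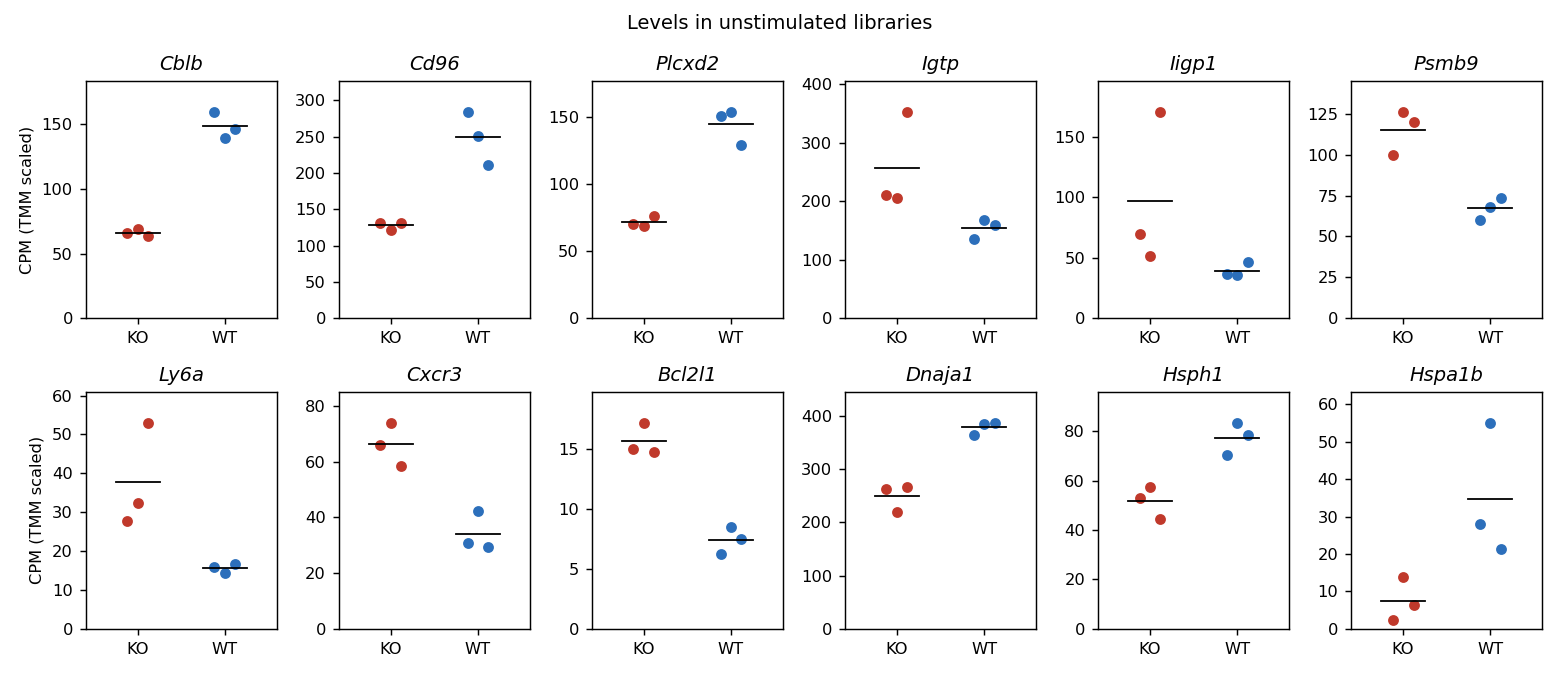
Levels (CPM, linear axes from 0) of 12 genes in the 3 KO (left, red) and 3 WT (right, blue) unstimulated libraries. Points are libraries 1 to 3 in order and lines are means. The groups do not overlap in any panel, which holds for 41.3% of all genes tested. KO library 3 stands highest for Igtp, Iigp1 and Ly6a.

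After stimulation the interferon genes lay near or below level. The median log2 fold change of the 31 interferon-gamma response genes was -0.18 with anti-CD3, where 1 was called higher and 8 lower, against 10.5% and 4.8% of all genes. It was -0.15 with both antibodies, where 1 was called higher and 4 lower, against 9.84% and 6.3% of all genes. These medians and calls after stimulation are from the fit without the GC correction. The genotype difference at rest minus that with anti-CD3 was called in 9 genes (0.0554%), 1 higher (0.00616%) and 8 lower (0.0492%), and under the correction in 308 (1.9%), 147 higher (0.905%) and 161 lower (0.991%), and the 31 interferon-gamma genes held 0 and 15 of these calls, all 15 higher at rest. Set against the antibody pair, the difference was called in 6089 genes (37.5%), and under the correction in 2703 (16.6%).

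**Figure D4:**
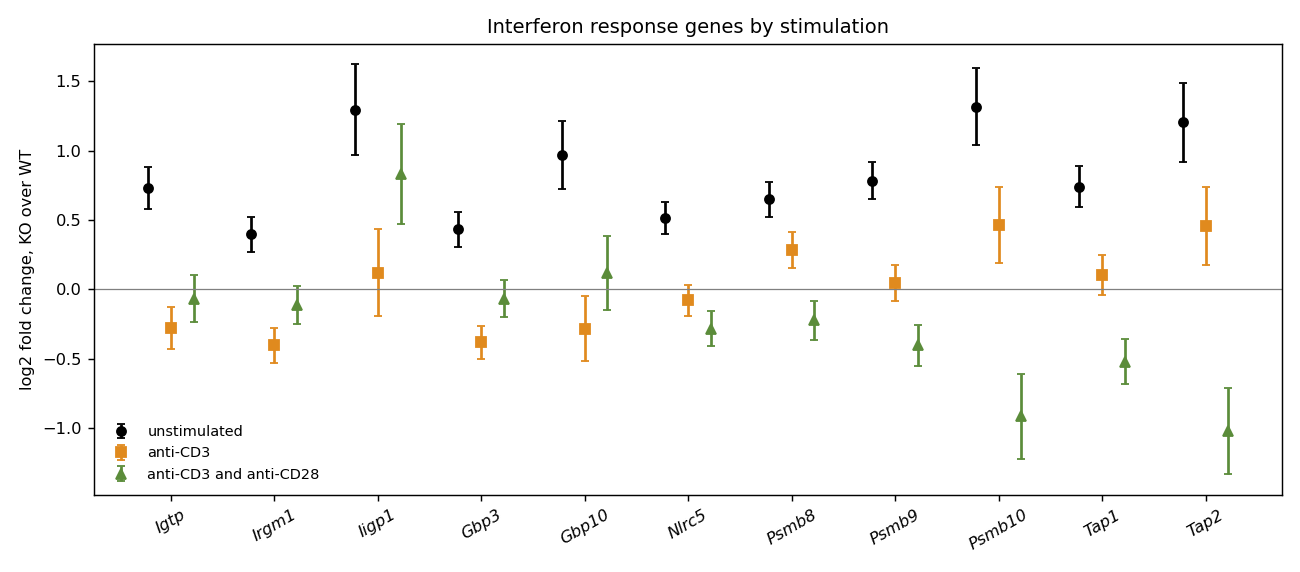
Log2 fold change of KO over WT without the GC correction (points, bars ± SE) of the 11 interferon-gamma response genes that rose at rest, in unstimulated cells (circles), with anti-CD3 (squares) and with anti-CD3 plus anti-CD28 (triangles). All 11 lie above 0 at rest, between 0.40 and 1.32, where they were chosen, and 6 of the 11 lie above 0 with anti-CD3.

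A few genes of memory-like CD8+ T cells rose. Of 26 memory and effector transcription factors and receptors, 4 rose (15.4% against 3.13% of all genes) and 1 fell. Cxcr3, the receptor for the interferon-induced chemokines CXCL9 and CXCL10, had 65.9, 74.0 and 58.6 CPM in KO libraries against 31.0, 42.1 and 29.3 CPM in WT libraries and was called in all 14 fits (0.96 ± 0.18, adjusted p = 0.0061). Il2rb, the beta chain of the receptors for interleukin-2 and interleukin-15, had 395, 454 and 394 CPM in KO against 224, 314 and 264 CPM in WT libraries (0.63 ± 0.12, adjusted p = 0.00592). Ly6c2, a surface antigen of memory CD8+ T cells, had 386, 406 and 505 CPM in KO against 249.9, 311 and 207 CPM in WT libraries (0.76 ± 0.17, adjusted p = 0.00982). Hopx, a homeodomain cofactor, was higher by 0.51 ± 0.13 (adjusted p = 0.0118). Itga4, the alpha 4 integrin chain used to enter inflamed tissue, fell, with 426, 355 and 375 CPM in KO against 681, 553 and 531 CPM in WT libraries (-0.61 ± 0.11, adjusted p = 0.00467). Leaving out single libraries gave 1 to 5 members higher, the lowest count without WT library 1.

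None of the activation markers described here was called in both fits, though some were called higher without the correction. Cd44 had 64.3, 60.8 and 66.3 CPM in KO against 66.9, 68.5 and 56.01 CPM in WT libraries, overlapping groups with a log2 fold change close to 0 (adjusted p = 0.993). The transcription factor genes Tbx21 and Eomes were called higher without the correction (0.63 ± 0.16 and 0.50 ± 0.16, adjusted p = 0.0123 and 0.028), but with it their log2 fold changes were -0.09 and -0.03. Granzyme B (Gzmb) had 4.77, 3.64 and 6.66 CPM in KO against 3.60, 2.70 and 6.90 CPM in WT libraries, and Il2ra was between 0.833 and 1.68 CPM in KO and between 0.836 and 1.49 CPM in WT libraries. Of 26 early genes induced by the T cell receptor, 0 rose and 0 fell in both fits. Without the correction 6 of these early genes were called higher and 0 lower, against 15.3% and 10.1% of all genes. With it 0 of them were called higher and 2 lower, against 3.77% and 4.12% of all genes. Among them Nr4a1, a reporter of receptor signalling, had 31.1, 32.3 and 25.4 CPM in KO against 19.7, 21.9 and 37.3 CPM in WT libraries, and Irf4 was at 9.88, 10.2 and 12.9 CPM in KO against 10.3, 8.71 and 9.22 CPM in WT libraries. Cd69 had 412, 377 and 427 CPM in KO against 638, 571 and 552 CPM in WT libraries, without overlap but past the threshold in neither fit (-0.53 ± 0.20, adjusted p = 0.0593). Myc had 68.8, 89.2 and 61.2 CPM in KO against 39.9, 39.3 and 40.4 CPM in WT libraries, called higher without the correction (0.88 ± 0.12, adjusted p = 0.0023) and not with it (0.40, adjusted p = 0.0712).

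Of 27 naive and quiescence genes, 1 rose (3.7% against 3.13% of all genes) and 2 fell (7.41% against 2.08% of all genes). Without the correction 2 were called higher and 5 lower, with it 1 and 6, and without KO library 2 or without WT library 1 there were 0 calls in both fits. Btg1, an antiproliferative gene that keeps T cells quiescent, had 1617, 1492 and 1627 CPM in KO against 2122, 1943 and 2050.2 CPM in WT libraries (-0.37 ± 0.08, adjusted p = 0.00969). Klf3, a repressor of the Krüppel-like family, had 337, 276 and 338 CPM in KO against 405, 380.2 and 402 CPM in WT libraries (-0.32 ± 0.09, adjusted p = 0.0203). Nsg2 was higher by 0.25 ± 0.09 (adjusted p = 0.0469). Ccr7, S1pr1 and Lef1, which mark naive recirculating cells, passed in neither fit, with log2 fold changes of 0.33, -0.17 and -0.02. Il7r, the interleukin-7 receptor, was called lower only without the correction (-0.48, and -0.12 with it). Tcf7 and Klf2 were called lower only with it, at -0.31 and -0.57, where the fit without it gave 0.05 and 0.27.

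Ly6a, which encodes Sca-1, a surface protein of memory T cells induced by interferons, was called in all 14 fits. It had 27.7, 32.5 and 53.0 CPM in KO libraries against 15.8, 14.4 and 16.6 CPM in WT libraries (1.27 ± 0.18, adjusted p = 0.00265). Bcl2l1, whose main product Bcl-xL protects cells from apoptosis, had 15.0, 17.2 and 14.7 CPM in KO against 6.22, 8.48 and 7.47 CPM in WT libraries (1.09 ± 0.14, adjusted p = 0.00154), also called in all 14 fits. With anti-CD3 its difference was 1.71 ± 0.14 and after the antibody pair 0.83 ± 0.16 (adjusted p = 3.08e-06 and 0.00472). The related survival gene Mcl1 went the other way, with 437, 350.3 and 469 CPM in KO against 540.2, 558 and 571 CPM in WT libraries (-0.41 ± 0.11, adjusted p = 0.0141). In the list of 23 NF-kappaB targets and survival genes 2 rose (8.7% against 3.13% of all genes) and 1 fell (4.35% against 2.08%). Without the correction 12 were called higher and 2 lower, against 15.3% and 10.1% of all genes. The other member that rose was Icam1, an adhesion molecule that binds LFA-1 (0.52 ± 0.13, adjusted p = 0.0117). Entpd1, the ectonucleotidase CD39, had 6.18, 6.12 and 5.43 CPM in KO against 2.46, 3.04 and 2.89 CPM in WT libraries and was called in all 14 fits (1.09 ± 0.22, adjusted p = 0.00686). Among the 16 inhibitory receptors and exhaustion genes it was the 1 member that rose, and Cd96 and Btla were the 2 that fell, while Ctla4 passed in neither fit (-0.14 ± 0.16) and Pdcd1 was called higher without the correction only (0.66 and 0.28).

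Cytotoxic granule genes had 3 of 17 members higher and 0 lower (17.6%). Gzmm, granzyme M, had 15.2, 16.8 and 20.7 CPM in KO against 6.09, 8.86 and 8.83 CPM in WT libraries (1.149 ± 0.20, adjusted p = 0.00467). Ctsw, the lymphocyte cathepsin W, had 199, 246 and 193 CPM in KO against 119, 154 and 132 CPM in WT libraries (0.66 ± 0.12, adjusted p = 0.00645). Unc13d, needed for granules to fuse with the membrane, was higher by 0.98 ± 0.24 (adjusted p = 0.0128), or 0.25 with the correction. Perforin (Prf1), Nkg7 and the chemokine gene Ccl5 were called higher without the correction only, at 0.56, 0.49 and 0.55. Xcl1, which attracts cross-presenting dendritic cells, rose as the only member among 9 chemokines, with 15.2, 13.0 and 14.7 CPM in KO against 9.08, 10.8 and 8.94 CPM in WT libraries (0.56 ± 0.17, adjusted p = 0.0227). The cytotoxic genes that passed in both fits numbered 0 without WT library 1 and 1 without KO library 2. Xcl1 did not pass in both fits without KO library 1, KO library 2, WT library 1 or WT library 3.

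Few genes of early signalling were called in both fits. Among 26 genes of the T cell receptor complex and its proximal signalling, 2 rose, Zap70 and Cd5 (7.69% against 3.13% of all genes), and 1 fell, Rasgrp1 (3.85% against 2.08%). Without the correction 7 were called higher and 3 lower (26.9% and 11.5%, against 15.3% and 10.1% of all genes). Zap70, the kinase recruited to the activated receptor, had 116, 141 and 93.1 CPM in KO against 50.7, 68.1 and 65.2 CPM in WT libraries (0.93 ± 0.18, adjusted p = 0.00684, and 0.23 with the correction). Cd5, an inhibitory receptor whose level follows self-reactivity, had 136, 171 and 119 CPM in KO against 78.0, 101 and 97.3 CPM in WT libraries (0.63 ± 0.14, adjusted p = 0.00841). Rasgrp1, the exchange factor that activates Ras below the receptor, had 324, 309.6 and 332 CPM in KO against 408, 356 and 386 CPM in WT libraries (-0.25 ± 0.07, adjusted p = 0.0205). Of 27 negative regulators of antigen receptor signalling, 2 rose (7.41% against 3.13% of all genes) and 0 fell. Without the correction 10 were called higher and 4 lower, against 15.3% and 10.1% of all genes. Csk, which inhibits the kinase Lck, was higher by 0.91 ± 0.22 (adjusted p = 0.0122), and Dok2, an inhibitory adaptor, by 0.90 ± 0.18 (adjusted p = 0.00686). Jak3, the kinase bound to the common gamma chain of interleukin receptors, had 83.3, 116 and 75.9 CPM in KO against 29.2, 44.4 and 40.001 CPM in WT libraries (1.28 ± 0.26, adjusted p = 0.00834). In Zap70, Cd5, Csk, Dok2 and Jak3 KO library 2 was the highest. Of 17 costimulatory receptor genes 1 rose (5.88% against 3.13% of all genes) and 0 fell, with 6 called higher and 6 lower without the correction. The 1 that rose was Tnfrsf18, which encodes GITR (0.80 ± 0.19, adjusted p = 0.01). Cd28 was called lower without the correction only (-0.51 ± 0.12, and -0.21 with it). In the transforming growth factor beta pathway, which Cbl-b-deficient T cells are known to resist, 0 of 16 rose and 2 fell (12.5% against 2.08% of all genes), the receptor gene Tgfbr1 (-0.47 ± 0.13, adjusted p = 0.017) and Smad4 (-0.30 ± 0.09, adjusted p = 0.0215). Tgfbr2 had 341, 356 and 311 CPM in KO against 313, 314 and 335 CPM in WT libraries (0.07 ± 0.10, adjusted p = 0.641). Without KO library 2 the receptor complex, negative regulator, costimulatory and transforming growth factor beta lists each held 0 calls in both fits, and without WT library 1 they held 0, 1, 0 and 0.

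Heat shock genes were lower in resting KO cells. These genes encode chaperones that refold proteins and are switched on together by the transcription factor HSF1 when cells are stressed. Of 16 tested, 5 fell and 0 rose (31.2% against 2.08% of all genes), and the count was 3 without WT library 2 and 4 or 5 without any other single library. Hspa1b, the inducible chaperone Hsp70, had 2.41, 13.8 and 6.34 CPM in KO libraries against 28.0, 55.1 and 21.3 CPM in WT libraries (-2.14 ± 0.46, adjusted p = 0.00915) and was called in all 14 fits. Hspa1a, its near-identical copy, had 0.730, 5.97 and 2.98 CPM in KO against 9.40, 25.5 and 8.09 CPM in WT libraries (-2.04 ± 0.53, adjusted p = 0.016). Library 2 of each genotype held the most of both, and no KO library reached any WT library. Reads shared between the copies could have been split either way, so their separate levels are uncertain. The promoters of the pair are shown because they too are almost identical: of the 250 bases before each RefSeq start (GRCm38.p6; Hspa1a chr17:34972157-34972406, Hspa1b chr17:34959239-34959488, minus strand, 5′ to 3′) only the 3 in capitals differ.
Hspa1a: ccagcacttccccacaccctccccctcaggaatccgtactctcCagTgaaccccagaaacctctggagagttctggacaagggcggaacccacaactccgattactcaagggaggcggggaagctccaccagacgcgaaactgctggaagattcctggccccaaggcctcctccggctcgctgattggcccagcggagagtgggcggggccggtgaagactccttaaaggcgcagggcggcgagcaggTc
Hspa1b: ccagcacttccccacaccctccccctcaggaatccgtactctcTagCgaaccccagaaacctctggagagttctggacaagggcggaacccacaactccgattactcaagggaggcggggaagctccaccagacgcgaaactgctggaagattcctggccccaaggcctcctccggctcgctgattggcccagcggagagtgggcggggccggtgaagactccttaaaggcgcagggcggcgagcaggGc

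The cochaperone genes that fell were more abundant and less variable. Dnajb1, the Hsp40 partner of Hsp70, had 102, 130.2 and 98.4 CPM in KO against 138, 182 and 145 CPM in WT libraries and was called in all 14 fits (-0.49 ± 0.11, adjusted p = 0.00953). Dnaja1 had 263, 220.2 and 265 CPM in KO against 363, 384 and 387 CPM in WT libraries (-0.60 ± 0.12, adjusted p = 0.00725). Hsph1, the nucleotide exchange factor Hsp110, had 53.0, 57.3 and 44.5 CPM in KO against 70.4, 83.5 and 78.3 CPM in WT libraries (-0.58 ± 0.12, adjusted p = 0.00816). Dnajb4, outside the list and picked out after its values were seen, had 27.7, 27.3 and 32.9 CPM in KO against 51.9, 47.8 and 47.9 CPM in WT libraries (-0.75 ± 0.10, adjusted p = 0.00144). The 3 cochaperones of the list and Dnajb4 were separated by genotype in every library, as were 19.5% of all genes tested in the same direction. A heat shock element, searched on both strands as GAA, TTC and GAA separated by 2 bases each, was in 0.466% of 32851 promoters of 250 bases. It was in 0 of the 5 genes that fell and in 1 of 7 others of the list with a promoter sequence. The search took exact matches only. An element with a differing base, or outside the 250 bases, was not counted, so the 0 does not show that these genes lack one. Hsf1 itself was called higher without the correction only (0.49, and -0.09 with it). After stimulation the list lay higher in KO cells. Its median log2 fold change was -0.16 at rest and 0.52 with anti-CD3, where 8 of 16 were called higher and 0 lower. After the antibody pair it was 0.72, with 11 called higher and 0 lower. These medians and the calls after stimulation are from the fit without the GC correction. Of all genes 10.5% were called higher and 4.8% lower with anti-CD3, and 9.84% and 6.3% after the pair. Hsph1 was higher in KO cells by 0.56 ± 0.12 with anti-CD3 and by 0.76 ± 0.14 after the antibody pair (adjusted p = 0.00544 and 0.00425).

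A share of the ribosomal protein, glycolysis and respiratory chain genes rose in KO cells, and these counts depended on single libraries. Of 49 cytosolic ribosomal protein genes, 21 rose (42.9%) and 0 fell, and the median was 0.44 without and 0.27 with the correction. Rpl11, a large subunit protein, had 924, 1028 and 842 CPM in KO against 596, 723 and 658 CPM in WT libraries (0.50 ± 0.10, adjusted p = 0.0071). Rpl36 had 322, 364 and 138 CPM in KO against 34.6, 71.8 and 64.3 CPM in WT libraries (2.28 ± 0.61, adjusted p = 0.021). Without KO library 2, and likewise without WT library 1, 0 of the 49 passed in both fits, while the other libraries left out gave 9 to 25. Ribosomal protein genes have many processed pseudogenes, so the split of reads between copies is uncertain.

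Of 20 glycolysis genes, 6 rose (30%) and 0 fell. Gpi1, the second enzyme of glycolysis, had 256, 325 and 254 CPM in KO against 147, 186 and 178 CPM in WT libraries (0.71 ± 0.14, adjusted p = 0.00686), and Eno1 and Gapdh were higher by 0.68 ± 0.14 and 0.71 ± 0.13 (adjusted p = 0.0071 and 0.00639). With the correction these were 0.32, 0.33 and 0.25. Of 28 nuclear-encoded respiratory chain genes, 5 rose (17.9%) and 0 fell, among them Ndufb7 of complex I, with 28.6, 37.1 and 23.9 CPM in KO against 9.56, 13.8 and 11.6 CPM in WT libraries (1.37 ± 0.24, adjusted p = 0.00523, called in all 14 fits). Leaving out single libraries gave 0 to 5 glycolysis genes, the lowest counts being 0 without WT library 1 and 1 without KO library 2. For the respiratory chain the counts were 1 to 5, the lowest without KO library 2 and without WT library 2. The 13 mitochondrially encoded genes, all rich in A and T (median GC content 37.1%), had 7 members lower without the correction and 0 with it, and mt-Co1 had 10019, 7998 and 10312 CPM in KO against 14390.0, 13167 and 11765 CPM in WT libraries. Splicing factor genes, also low in GC (44.2%), had 10 of 22 lower without the correction (10.1% of all genes) and 2 in both fits (2.08% of all genes).

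**Figure D5:**
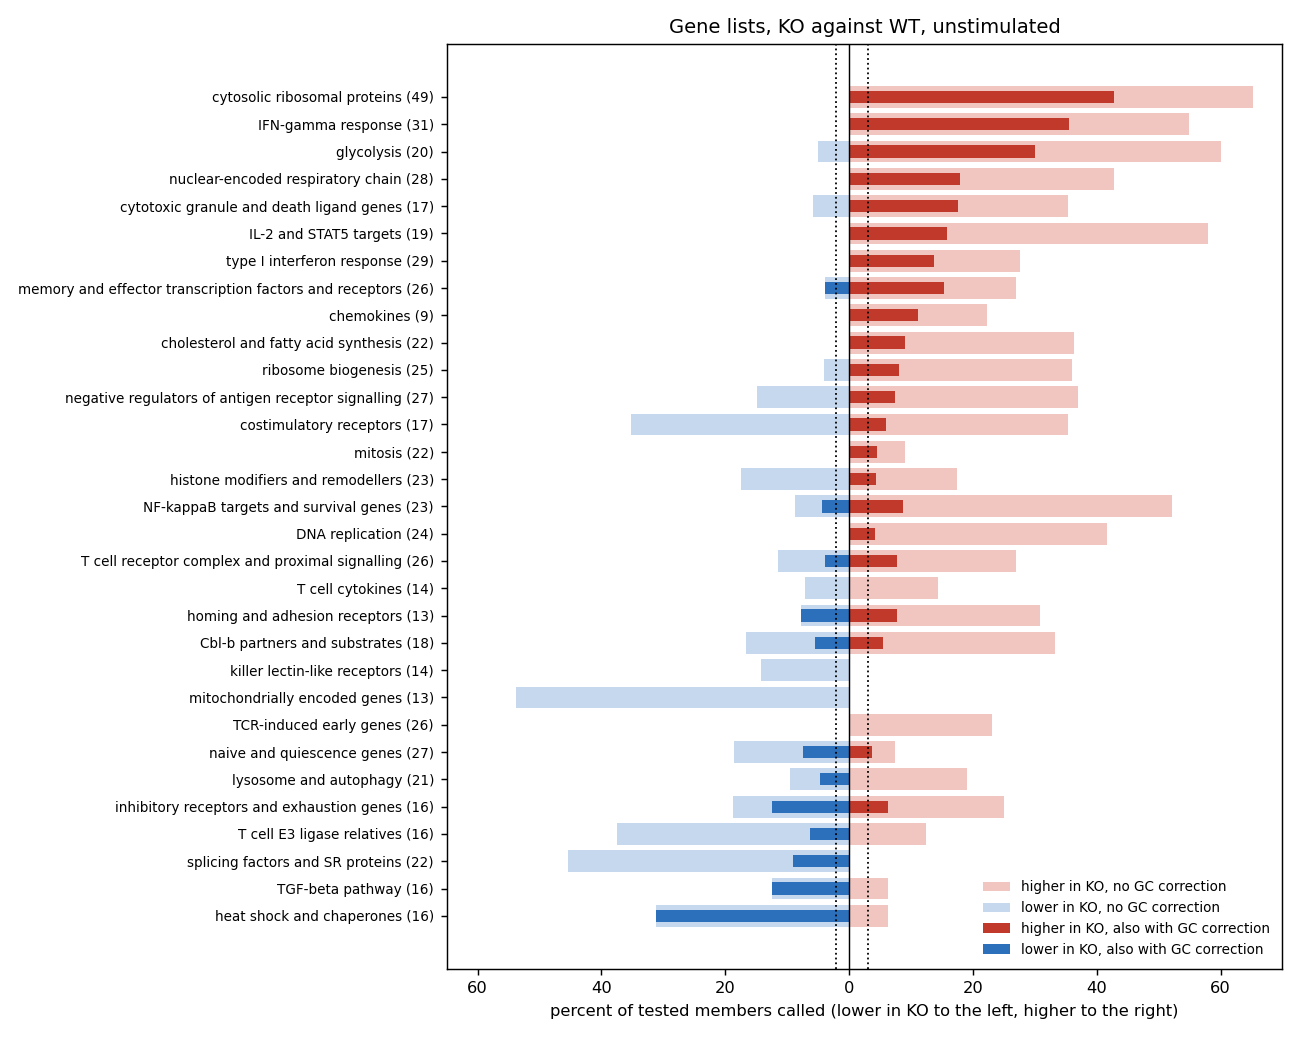
Percent of tested members called lower (left) and higher (right) in KO for 31 gene lists, with the number tested in parentheses; pale bars are calls without the GC correction, dark bars calls in both fits, and dotted lines the share of all genes called in both fits (2.08% lower, 3.13% higher). Ribosomal proteins and the interferon-gamma response reach 42.9% and 35.5% higher, and heat shock genes 31.2% lower.

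The remaining lists held few calls in both fits. Cholesterol and fatty acid synthesis and ribosome biogenesis had 2 members each higher, of 22 and 25, against 8 and 9 without the correction. The lipid genes were Srebf1, which encodes the factor that switches on this synthesis, and Fasn, the fatty acid synthase, with 152, 219 and 141 CPM of Fasn in KO against 67.6, 92.7 and 87.4 CPM in WT libraries (1.05 ± 0.23, adjusted p = 0.00973, and 0.33 with the correction). DNA replication had 1 of 24 and mitosis 1 of 22 higher, and 0 lower. These were Mcm7, of the replicative helicase, and the cyclin gene Ccnb2, with 3.09, 2.49 and 3.10 CPM in KO against 1.59, 1.82 and 1.07 CPM in WT libraries (0.91 ± 0.29, adjusted p = 0.0292). Of 19 targets of interleukin-2 and STAT5, 3 rose, against 11 without the correction, and their median GC content of 56.3% was that of the genes called higher. The 14 killer lectin-like receptor genes had 0 calls in both fits, with 2 lower without the correction. Cish, a STAT5 target that restrains T cell receptor signalling, had 2.92, 3.17 and 5.24 CPM in KO against 1.62, 2.74 and 3.85 CPM in WT libraries, which overlap (0.46 ± 0.28, adjusted p = 0.224). Cxcr5, the chemokine receptor for entry into follicles, was the 1 of 13 homing and adhesion genes that rose, with 35.3, 40.8 and 37.5 CPM in KO against 22.8, 25.01 and 25.6 CPM in WT libraries (0.63 ± 0.11, adjusted p = 0.00466, called in all 14 fits). Itga6, the laminin-binding alpha 6 integrin chain, was the 1 that fell (-0.36 ± 0.07, adjusted p = 0.00725).

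The largest single changes were chosen among 687 genes called in both fits that had a mean log2 CPM of at least 2 and did not overlap between the groups. Identifiers with predicted or clone names and pseudogenes were left out of this ranking, so its ends are not the extremes of all genes. Groups without overlap were found for 6717 of all genes tested (41.3%). The 12 highest were Dpm3, Rpl36, Hist1h3f, Hist1h2bn, Terc, Ap5b1, Trex1, Zfpm1, Emilin1, Dohh, Smpd5 and Nfkbil1, with log2 fold changes between 2.46 and 1.52. Dpm3, a subunit of dolichol-phosphate mannose synthase, had 10.6, 13.1 and 6.01 CPM in KO against 1.33, 2.36 and 1.81 CPM in WT libraries, and was called in all 14 fits (2.46 ± 0.46, adjusted p = 0.00664). Smpd5, of the neutral sphingomyelinases, had 16.7, 24.3 and 12.7 CPM in KO against 5.96, 6.96 and 6.00 CPM in WT libraries, also in all 14 fits (1.52 ± 0.24, adjusted p = 0.00333). Trex1, the exonuclease that clears cytosolic DNA and is induced by interferons, had 15.8, 20.4 and 12.7 CPM in KO against 3.66, 5.32 and 7.19 CPM in WT libraries (1.64 ± 0.38, adjusted p = 0.011). In Dpm3, Smpd5 and Trex1 the KO libraries stood in the order of their tilt, with library 2 highest and library 3 lowest, and the corrected log2 fold changes were 1.94, 0.93 and 0.99.

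The 12 lowest were Hspa1b, Hspa1a, Cblb, Plcxd2, Greb1l, Cd96, Fbxo30, Slc35a5, Zfp326, Calcrl, Xkrx and Neto2, with log2 fold changes between -2.14 and -0.86. Greb1l had 3.76, 3.64 and 3.62 CPM in KO against 7.33, 6.84 and 7.47 CPM in WT libraries, values almost without spread (-0.97 ± 0.15, adjusted p = 0.00287). Calcrl, the receptor subunit for calcitonin gene-related peptide and adrenomedullin, had 57.2, 42.4 and 62.7 CPM in KO against 106, 95.3 and 94.0 CPM in WT libraries (-0.87 ± 0.12, adjusted p = 0.00168). Fbxo30, an F-box subunit of ubiquitin ligases, had 8.25, 7.04 and 7.503 CPM in KO against 12.9, 15.8 and 14.1 CPM in WT libraries (-0.92 ± 0.14, adjusted p = 0.00321), and Zfp326, of mRNA processing, had 15.5, 13.7 and 17.98 CPM in KO against 31.8, 25.1 and 28.9 CPM in WT libraries (-0.87 ± 0.12, adjusted p = 0.00189). These 4 genes were called in all 14 fits, and none of the 4 is on chromosome 16.

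The genes that changed at rest were set beside the same genes after stimulation, where other libraries were used. Of the 509 that rose, 223 were called higher and 3 lower with anti-CD3, and 37 and 59 with both antibodies, where the GC trend ran the opposite way. Of the 338 that fell, 98 were called lower and 2 higher with anti-CD3, and 19 and 39 with both antibodies. Of all genes, 10.5% were called higher and 4.8% lower with anti-CD3, and 9.84% and 6.3% with both antibodies. All these calls are from the fit without the GC correction. With anti-CD3 the GC trend ran the same way as at rest, from -0.17 in the lowest to 0.41 in the highest decile. The median log2 fold change of the 509 with anti-CD3 was 0.52 without and 0.30 with the correction. That of the 338 was -0.23 and -0.26. The genotype difference at rest differed from that with anti-CD3 in both fits for 8 genes (0.0492%). Among them Igfbp4, Hsph1, Ccnd2, Plk2, Umps, Cish and Cd200 had a lower genotype difference at rest than with anti-CD3 (0.0431%). The rest minus anti-CD3 values were -1.32, -1.14, -0.85, -2.01, -0.80, -2.14 and -2.21. At rest the log2 fold changes of KO over WT of Igfbp4 and Cish were themselves above 0, at 0.64 and 0.46. Ccnd2, the D-type cyclin of early G1, showed no detectable difference at rest (-0.06 ± 0.10) and was higher in KO cells by 0.79 ± 0.10 with anti-CD3. Plk2 and Cd200 likewise stood at -0.54 ± 0.23 and -0.67 ± 0.29 at rest and at 1.47 ± 0.24 and 1.54 ± 0.25 with anti-CD3.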

How the data were processed

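RNA sequencing of ribosomal RNA-depleted RNA was measured in 17 libraries. The authors deposited gene counts, whole numbers per gene with no normalization, and STAR 2.5.2, RSEM 1.3.0 and the mouse build mm10 are named in the submitters' processing notes. Counts of all 17 libraries were fitted with edgeR 4.0.16 (R 4.3.3, limma 3.58.1): filterByExpr, TMM scaling, 1 coefficient per group and the robust quasi-likelihood test, with Benjamini-Hochberg adjustment over 16246 genes at 0.05. For the GC correction, log2 CPM was smoothed against exonic GC content in each library (loess, span 0.3, genes with a mean log2 CPM of 1 or more) and the curves entered as offsets; GC content was known for 99.9% of the genes tested. Gene names, positions and GC content came from the GENCODE mouse annotation, to which 53650 of 53679 gene IDs matched. Promoter sequences came from RefSeq genes of GRCm38.p6. Named genes were 32 genes of T cell state, the 12 highest and 12 lowest, and in each of 31 lists at most 3 members a direction, in all 118, plus those stated to be picked out afterwards; some are not reported here. The members, lists and rules were chosen with earlier results of these data known, so counts over lists are descriptions. Library scaling, filters, DESeq2 1.42.0, limma voom, a replicate block and leaving out each library were tried. The scripts were tested on simulated data. No library was a duplicate: chi-square per gene between replicates ran from 14.7 to 629. With counts of 16640125 and more per library, precision is limited by the number of libraries.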

Additional observations from a re-analysis of the deposited data

Results flagged for a closer look

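In 8 genes the genotype difference in unstimulated cells differed from that in cells given anti-CD3. This was by edgeR's test of the difference itself in the fits without and with the GC correction. Hsph1 and Cish among them are described here. For Hsph1, a chaperone gene, the difference of log2 fold changes was -1.14 ± 0.17 (adjusted p = 0.03), with KO below WT at rest and above it with anti-CD3. For Cish, an inhibitor of cytokine signalling, it was -2.14 ± 0.37 (adjusted p = 0.0441): the genotypes stood 0.46 ± 0.28 apart at rest and 2.60 ± 0.24 with anti-CD3, where Cish stood at 36.7 ± 8.84 CPM in KO libraries, against 6.03 ± 0.727 CPM in WT libraries (SD, n = 3 each).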

How the results depend on the processing

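Cblb kept its direction and its call under every alternative run, with log2 fold changes from -1.21 to -1.06, and the tilt difference was 1.09 over all expressed genes. Counts of genes called at rest, 2493 higher and 1641 lower, were 613 and 670 with the GC correction, 14 and 17 with the tilt as covariate, 115 and 137 with the correction and without KO library 2, 517 and 554 in a fit of the 6 libraries alone with it, and 214 to 2802 and 134 to 2203 without single libraries. Lower calls were 1072 without a filter and 889 in the 6 libraries alone. Genes called in both fits were 72 to 565 higher and 54 to 371 lower without single libraries, and 199 were lower in the 6 libraries alone. Calls in both fits were not run for DESeq2, voom or the tilt covariate.

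The difference between rest and anti-CD3, 1 gene higher and 8 lower, was 98 and 118 by DESeq2, 265 and 653 by voom, 16 and 47 without a filter, 147 and 161 with the GC correction, 52 and 93 with the tilt, 80 and 63 with the correction and without KO library 2, and 0 to 9 and 0 to 11 without single libraries. Higher calls were 2 under relative log expression scaling and 3 with a filter of 1 CPM. Against both antibodies, 3117 and 2972 became 1222 and 1481 with the correction, 0 and 0 with the tilt, and 737 and 915 with the correction and without KO library 2 (2353 to 3378 and 2265 to 3253 without single libraries). Neighbours of Cblb, 1 higher and 9 lower, were 1 and 3 with the correction, 0 and 0 with the tilt, 1 and 1 with the correction and without KO library 2, 1 and 4 in the 6 libraries alone, 2 and 2 there with the correction, and 0 to 1 and 1 to 11 without single libraries.

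Deviations of same-numbered KO and WT libraries from their group means had correlations of 0.05, 0.26 and -0.13. With the GC correction these were -0.02, 0.06 and 0.02. Differently numbered libraries reached -0.36 (KO 2 with WT 1) and 0.33 (KO 3 with WT 1) without it. With 3 libraries a group, these values cannot decide whether the numbers pair the libraries. With the replicate number as a block, 2373 genes were higher and 1640 lower, and with the correction added 610 and 682; the rest minus anti-CD3 difference gave 0 higher, and with the correction 221 and 289, that against both antibodies 1405 and 1684, and the neighbours 2 and 3.

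Direction reversed for 6 named genes. With the correction these were Tcf7 (-0.31), Klf2 (-0.57), Eomes (-0.032), Tbx21 (-0.091), Smad7 (-0.55) and Dusp2 (-0.065, or -0.11 also without KO library 2). With the block added they were -0.31, -0.58, -0.060, -0.10, -0.55 and -0.065. In the 6 libraries alone with the correction Klf2 was -0.57, Eomes -0.033, Tbx21 -0.088, Smad7 -0.55 and Dusp2 -0.065. The cause was not tested.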

Other observations

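A gene identifier annotated as Exosc6, a subunit of the RNA exosome, had 0 counts over the 3 KO libraries and 221 over the 3 WT libraries (2.30, 2.77 and 4.36 CPM). Against a floor of 3 counts over the pooled KO libraries it was at least 182-fold lower in KO cells, and at least 32.7-fold lower without KO library 2, which holds 160059285 counts. Gm13554, a predicted gene, had 108 counts over the KO libraries and 0 over the WT libraries, at least 14.6-fold higher against a floor of 3 counts over the pooled WT libraries. Both were called in all 14 fits and were picked out after their values were seen.

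A pair of gene identifiers that both carry the name Nnt, nicotinamide nucleotide transhydrogenase, overlap in the annotation and went in opposite directions, with log2 fold changes of -1.41 and 1.28, so the split of reads between them is uncertain. Uba7, the enzyme that activates ISG15, had 183, 239 and 207 CPM in KO libraries against 108, 123 and 126 CPM in WT libraries (0.82 ± 0.15, adjusted p = 0.00607) and was called in all 14 fits. It was lower in KO cells given both antibodies (-0.69 ± 0.17, adjusted p = 0.0147).

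Terc, the RNA template of telomerase, had 17.1, 18.2 and 9.31 CPM in KO libraries against 1.59, 4.79 and 4.98 CPM in WT libraries, a log2 fold change of 2.01 ± 0.50 (adjusted p = 0.0137) that was 0.88 with the GC correction. The histone genes Hist1h3f and Hist1h2bn, whose transcripts end without a poly(A) tail, were higher by 2.14 and 2.03. Hist1h3f had 19.4, 21.7 and 8.80 CPM in KO against 3.31, 3.54 and 4.75 CPM in WT libraries, so KO library 3, of the lowest tilt among the KO libraries, lay closest to WT.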
